A study of Mus musculus with 4 samples.

Results

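The genes described here are the 8 genes of the table that encode the channels and pumps of internal calcium stores. They are the ryanodine receptor genes Ryr1, Ryr2 and Ryr3, the inositol trisphosphate (IP3) receptor genes Itpr1, Itpr2 and Itpr3, and the SERCA pump genes Atp2a2 and Atp2a3. They were found by gene symbol among 25265 genes in the deposited table, and all 8 were among the 21132 genes with enough counts to be tested. Ryr2 was selected on its fold change between the groups in these same counts, so its values are a description without a test, and the other members were added as its relatives. Their symbols were chosen with results of the same comparison known.

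The RNA came from whole testes of mice of strain C57BL/6 aged 56 days after birth, and was depleted of ribosomal RNA before directional libraries were made. The labels call 2 libraries control and 2 Ythdf2-vKO, and vKO below always refers to that label. The series title speaks of germ cell-specific mutants of Ythdf2, a reader of N6-methyladenosine in RNA. The labels do not name the driver of the mutation, the deleted segment, the genotype of the controls beyond the word control, or whether each library is a separate animal. P-values therefore measure only the spread between these libraries, which may be technical.

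Internal calcium stores are the endoplasmic reticulum and its relatives, such as the sarcoplasmic reticulum of muscle. SERCA pumps use ATP to load calcium into the store. IP3 receptors open when phospholipase C makes IP3, and ryanodine receptors open in response to calcium itself or to a coupled channel of the surface membrane. RYR1 is the main release channel of skeletal muscle, RYR2 that of the heart, and RYR3 is found at lower levels in brain and other tissues. In sperm, IP3 receptors have been described on the acrosome, the vesicle whose release depends on calcium.

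Total counts ranged from 24862518 to 29561182 per library. Markers of the labelled tissue were present, with Prm2, a protamine of elongating spermatids, between 1728 and 2349.8 CPM, which are counts scaled by library size as in edgeR. The targeted gene Ythdf2 had 1193 and 1604 counts in control, against 1774 and 1807 in the vKO-labelled libraries. On the CPM scale these were 51.0 and 53.5 against 66.2 and 66.9 (edgeR quasi-likelihood test, adjusted p 0.238). A lower level with the vKO label was thus not seen. A count over a whole gene does not show a deleted exon, and in whole testis cells other than germ cells also supply reads. The genotype could not be checked from these counts. Directions are therefore those of libraries by their labels. Over the whole table edgeR's quasi-likelihood test called 83 genes at an adjusted p under 0.05, of which 59 were higher and 24 lower with the vKO label.

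The promoter of Ryr2 is shown because this gene had the largest difference of the 8, and those of Itpr2 and Itpr3 because these paralogs lay on opposite sides of the control level. Each sequence is the 250 bases before the RefSeq start of the gene, 5′ to 3′ on the gene's strand, in build GRCm38.p6. Capitals mark matches on either strand to the GC box GGGCGG, to the CCAAT box, to the TATA box TATAAA or to the E-box CACGTG.
Ryr2: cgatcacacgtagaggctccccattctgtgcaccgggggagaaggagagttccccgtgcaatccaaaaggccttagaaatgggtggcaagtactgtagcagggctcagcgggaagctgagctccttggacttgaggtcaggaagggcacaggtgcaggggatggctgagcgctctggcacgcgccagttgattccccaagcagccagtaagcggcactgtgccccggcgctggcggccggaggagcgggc
Itpr2: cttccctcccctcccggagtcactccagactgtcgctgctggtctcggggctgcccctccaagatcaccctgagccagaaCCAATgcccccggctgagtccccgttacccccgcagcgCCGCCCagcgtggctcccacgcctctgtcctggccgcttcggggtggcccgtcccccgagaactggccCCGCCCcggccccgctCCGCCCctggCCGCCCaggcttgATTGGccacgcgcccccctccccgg
Itpr3: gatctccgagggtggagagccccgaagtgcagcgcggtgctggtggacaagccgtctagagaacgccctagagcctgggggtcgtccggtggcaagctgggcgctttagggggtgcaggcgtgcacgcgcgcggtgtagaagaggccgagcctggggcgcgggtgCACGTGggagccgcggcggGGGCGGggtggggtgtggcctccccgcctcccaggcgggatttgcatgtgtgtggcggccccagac

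The Ryr2 window (chr13:12106946-12107195, minus strand) held 63.2% GC and 14 CpG, and no match to any of these letters. That of Itpr2 (chr6:146502224-146502473, minus strand) held 74.4% GC, 22 CpG, 4 GC box matches and 2 CCAAT matches. The RefSeq start of Itpr2 did not match the 5′ end of its longest transcript in GENCODE M21, although the window lies directly before the gene's span. That of Itpr3 (chr17:27057054-27057303, plus strand) held 72% GC, 25 CpG, 1 GC box match and 1 E-box match. Of the other members, Atp2a3 had 5 GC box matches, some of them overlapping, at 66.8% GC, and Ryr1 had 2 GC box matches and 1 CCAAT match at 54.8% GC. The Ryr1 window included 28 bases of annotated exons of Ryr1 itself. Among 32851 RefSeq promoter windows of the same length, 32.7% held a GC box, 33.8% a CCAAT match, 12.4% a TATA box and 6.02% this E-box, and the median was 52.4% GC with 6 CpG. Entries were found for these 5 members; Ryr3, Itpr1 and Atp2a2 were not matched. A match is a run of letters and not a site of binding, and its absence says nothing of a factor.

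Levels were compared between genes as CPM per kb of the longest transcript in GENCODE M21. In control the SERCA gene Atp2a2, the pump of most cell types, was by far the most abundant at 23.9 ± 5.58 (SD, n = 2). The IP3 receptors followed, with Itpr1 at 2.82 ± 0.0158, Itpr3 at 2.5 ± 0.786 and Itpr2 at 1.9 ± 0.136. Below them stood Atp2a3, a SERCA pump known from blood cells and epithelia, at 0.887 ± 0.0343, Ryr3 at 0.773 ± 0.197 and Ryr1 at 0.452 ± 0.136. Ryr2 was last at 0.0156 ± 0.000426. The ranges of Itpr1 and Itpr3 overlapped, as did those of Itpr3 and Itpr2 and those of Atp2a3 and Ryr3, so these neighbours are not ordered beyond their spread. In the vKO-labelled libraries, Atp2a2 was again first at 26.7 ± 4.23 and Ryr2 again last at 0.113 ± 0.00563. With coding length in place of transcript length, Atp2a2 stayed first and Ryr1 and Ryr2 stayed last in each of the 4 libraries, while the order of the IP3 receptors changed in 3 of the 4 libraries and that of Atp2a3 and Ryr3 in replicate 1 of each group. The control means kept the order Itpr1, Itpr3, Itpr2.

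**Figure D1:**
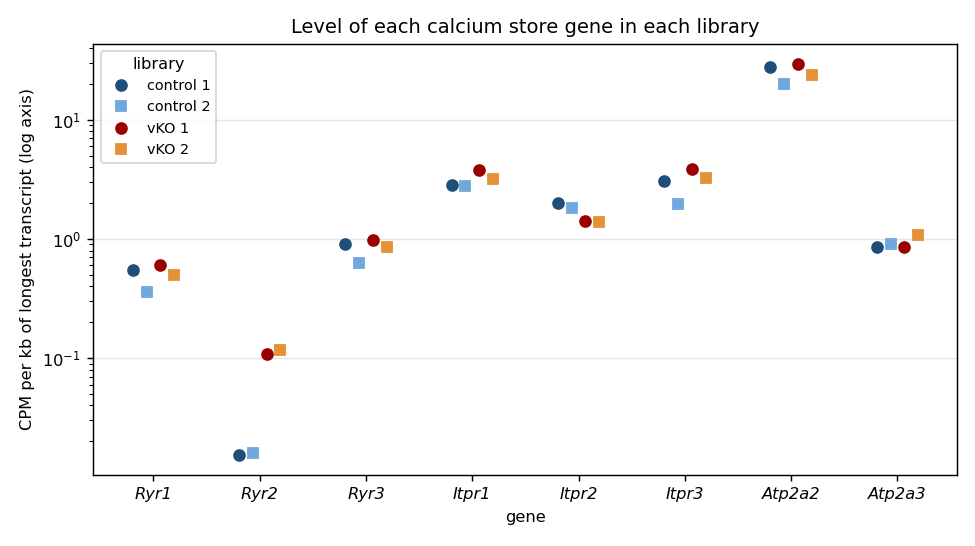
Level of each gene in CPM per kb of its longest transcript (log axis), with 1 point per library, blue for control and red or orange for vKO-labelled, circles for replicate 1 and squares for replicate 2. Ryr2 lies lowest in every library, near 0.0156 in control and 0.113 in vKO, and the other genes lie above it in all 4 libraries.

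Ryr2 had 6 and 8 counts in control, against 49 and 53 with the vKO label. The 95% exact Poisson intervals, which cover counting error only, were 2.2 to 13.1 and 3.45 to 15.8 in control, and 36.3 to 64.8 and 39.7 to 69.3 in vKO. Both control libraries were thus low and both vKO libraries high, as the choice of the gene by its fold change requires. On the CPM scale the gene went from 0.262 ± 0.00716 to 1.9 ± 0.0947 (SD, n = 2 each), a ratio of the means of 7.25. The fitted log2 fold change was 2.83 (SE 0.47), which spans 5.13-fold to 9.91-fold within 1 SE. In the authors' deposited table it was 2.85 (SE 0.67). Ryr2 (ENSMUSG00000021313) spans 554 kb of chromosome 13 (GRCm38, positions 11553102 to 12106945, minus strand), with 105 exons and 16814 nt in its longest transcript. In M21, 3 other genes lie within this span, none of them with an exon on an exon of Ryr2. The exons behind these reads cannot be read from a count per gene.

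Ryr1 and Ryr3, the other ryanodine receptor genes, differed little between the groups. Ryr3 had 14.1 and 9.8 CPM in control, against 15.3 and 13.1 CPM in the vKO-labelled libraries. The lowest value was that of control replicate 2, and the groups overlapped (log2 fold change 0.25, SE 0.20, adjusted p 0.623). Ryr1 had 8.42 and 5.47 CPM in control, against 9.22 and 7.67 CPM in vKO. Control replicate 2 was again lowest and the groups overlapped (log2 fold change 0.29, SE 0.23, adjusted p 0.638). Without control replicate 2 the log2 fold changes were 0.01 for Ryr3 and 0.0043 for Ryr1, and without control replicate 1 they were 0.53 and 0.62. A GC offset took that of Ryr1, whose transcript has 58% GC, to 0.13. On the opposite strand, 1 annotated exon of the gene Aven overlaps exon sequence of Ryr3. Aven had 204 and 186 CPM in control, against 185 and 191 in vKO. The strand setting of the counting is not given in the sources used here, so reads of this pair cannot be told apart with certainty.

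Within the family, Ryr2 made up 1.03% and 1.58% of the summed ryanodine receptor level per kb in control, and 6.41% and 7.96% in the vKO-labelled libraries. Ryr3 supplied most of it throughout, with 61.8% and 63.0% in control, against 58.2% and 58.0% in vKO. Ryr1 gave between 34.1% and 37.2% in the 4 libraries. The ratio of Ryr3 to Ryr2 was 59.8 and 39.9 in control, against 9.07 and 7.28 in vKO. Ryr2 thus remained the least abundant of the 3 paralogs even where it was highest. Since Ryr1 and Ryr3 differed little, these shares and ratios restate the fold change by which Ryr2 was chosen. The summed level itself was 1.48 and 1.01 CPM per kb in control, against 1.7 and 1.47 in vKO, and these ranges overlapped.

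**Figure D2:**
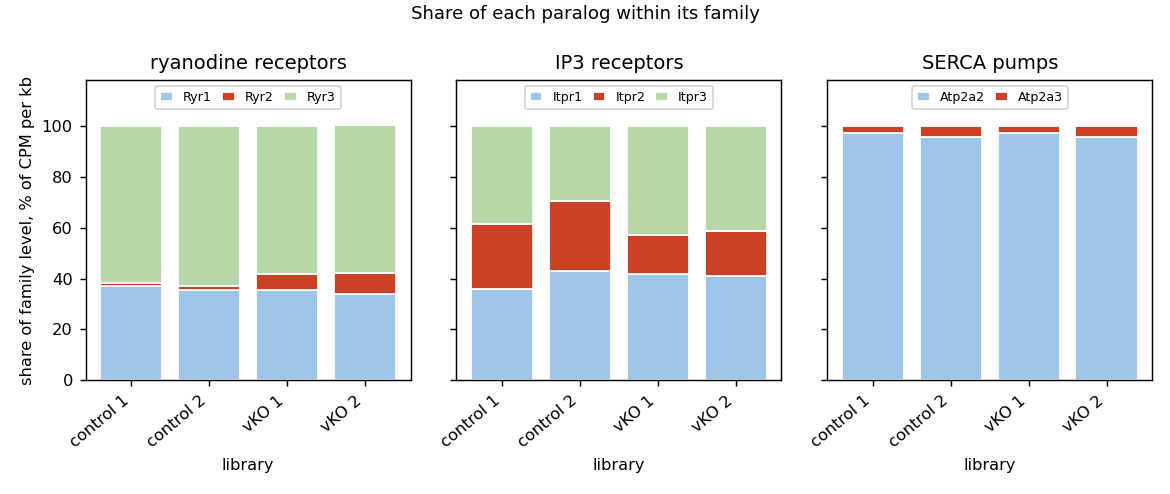
Share of each paralog in the summed level of its family, in percent of CPM per kb, with 1 bar per library. The Ryr2 segment is 1.03% and 1.58% in control against 6.41% and 7.96% in vKO, which restates the fold change by which Ryr2 was chosen. The Itpr2 segment is 25.3% and 27.5% against 15.5% and 17.7%, and Atp2a2 fills at least 95.6% of every SERCA bar.

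The IP3 receptor genes differed in direction. Itpr2 had 23.3 and 21.1 CPM in control, against 16.4 and 16.2 CPM in the vKO-labelled libraries. Both vKO libraries lay below both control libraries (log2 fold change -0.44, SE 0.15, adjusted p 0.219). Itpr3 had 27.5 and 17.5 CPM in control, against 34.8 and 29.3 CPM in vKO. Both vKO libraries lay above the controls, which differed widely from each other (log2 fold change 0.51, SE 0.20, adjusted p 0.281). Itpr1, the IP3 receptor best known from cerebellar neurons, had 27.9 and 27.7 CPM in control, against 37.3 and 31.6 CPM in vKO. These groups did not overlap either (log2 fold change 0.31, SE 0.14, adjusted p 0.353). None of the 3 passed the threshold. Their unadjusted p values were 0.0117, 0.0259 and 0.0493 in the order Itpr2, Itpr3 and Itpr1, and 14.1% of all genes tested had one under 0.05.

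Shares within the family were not tested. Itpr2 gave 25.3% and 27.5% of the summed IP3 receptor level per kb in control, against 15.5% and 17.7% in the vKO-labelled libraries. The share of Itpr3 was 38.8% and 29.7% in control, against 42.8% and 41.5% in vKO, and that of Itpr1 was between 35.9% and 42.8% in the 4 libraries. The ratio of Itpr3 to Itpr2 was 1.53 and 1.08 in control against 2.75 and 2.34 in vKO. The summed level overlapped between the groups, at 7.88 and 6.56 CPM per kb in control, against 9.05 and 7.85 in vKO. Of these genes Itpr3 depended most on a single library, and its log2 fold change was 0.86 without control replicate 1 (adjusted p 0.000125), where it was called, and 0.22 without control replicate 2. The antisense gene Itpr3os has 2 exons that overlap exon sequence of Itpr3, and had 86.1 and 46.3 CPM in control, against 53.7 and 60.0 CPM in vKO. It was highest in control replicate 1, and the strand setting of the counting is not given in the sources used here, so the value of Itpr3 is uncertain.

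Of the SERCA genes, Atp2a2 had 158 and 113 CPM in control, against 168 and 134 CPM in the vKO-labelled libraries. The groups overlapped (log2 fold change 0.16, SE 0.17, adjusted p 0.736). It was -0.06 without control replicate 2 and -0.01 without vKO replicate 1, and 0.41 without control replicate 1, where it was called at an adjusted p of 0.0245. Atp2a3 had 3.98 and 4.2 CPM in control, against 3.96 and 4.93 CPM in vKO. Its groups overlapped too (log2 fold change 0.12, SE 0.24, adjusted p 0.882), and a GC offset turned the sign, to -0.04. Atp2a2 held between 95.6% and 97.2% of the summed SERCA level per kb of this pair in each library. Atp2a1, the SERCA pump of fast skeletal muscle, named outside the naming rule as the remaining paralog, had 10 and 11 counts in control, against 18 and 19 in vKO (log2 fold change 0.79, SE 0.56, adjusted p 0.58).

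Among the 8 genes, 1 was called at an adjusted p under 0.05, namely Ryr2, against 0.393% of all genes tested (0.279% higher, 0.114% lower). Since this contrast chose Ryr2, nothing is read from that count. The other 7 had adjusted p values from 0.219 to 0.882. Ryr2 was not called without vKO replicate 1 (log2 fold change 2.88, adjusted p 0.0725), a fit that leaves a single vKO library and assumes that it varies like the controls. In 3 of the 7 genes other than Ryr2 the groups did not overlap, as was so for 45.3% of the genes tested. The median log2 fold change was 0.25 over these 7 genes and 0.003 over all genes tested. With Ryr2 included it was 0.27, and then 0.09 without control replicate 2 and 0.47 without control replicate 1.

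In Ryr1, Ryr3, Itpr3 and Atp2a2 the control libraries differed from each other by more than the groups did. On the log2 scale, control replicate 1 lay above control replicate 2 by 0.62 for Ryr1, 0.53 for Ryr3, 0.65 for Itpr3 and 0.48 for Atp2a2. Over 19274 genes with at least 10 counts in every library, the 10th and 90th percentiles of this difference were -0.45 and 0.48. These 4 genes also lay higher in vKO replicate 1 than in vKO replicate 2, by 0.22 to 0.33. So did Itpr1, by 0.24, and Itpr2, by 0.02. The difference between control replicates was smaller for Itpr1 at 0.01, Itpr2 at 0.15 and Atp2a3 at -0.08. For Ryr2 it was -0.06, but this rests on 6 and 8 counts, too few to show how closely the replicates agree. Ryr2 is also not among the 19274 genes, and was chosen by its fold change.

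**Figure D3:**
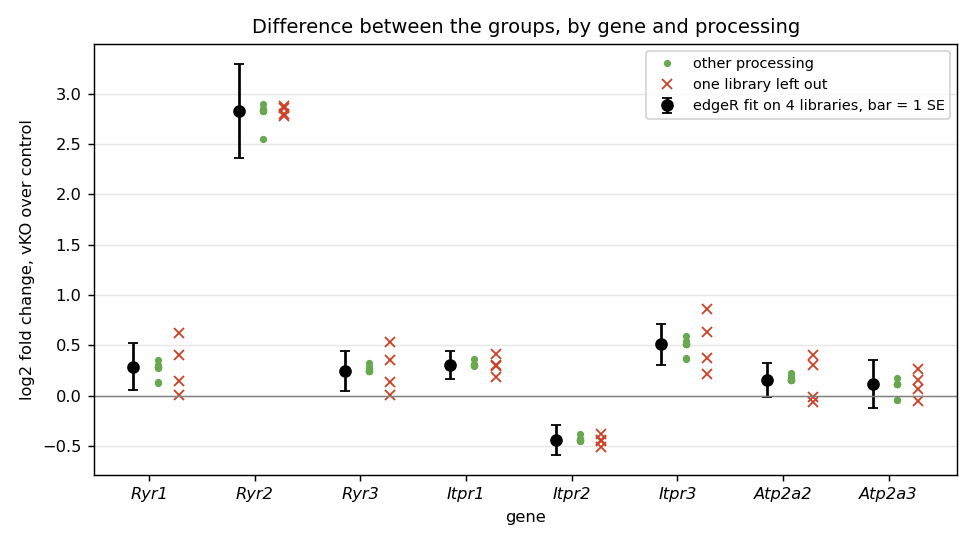
Log2 fold change of vKO over control for each gene, with the edgeR fit on 4 libraries and its standard error in black, other processing in green and fits without a single library as red crosses. Ryr2 stays between 2.55 and 2.90 and Itpr2 between -0.51 and -0.38, while the crosses of Atp2a2 and Atp2a3 fall on both sides of 0.

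Other genes of calcium store handling were taken from 10 role groups listed by function. Of 103 listed genes, 100 were in the table, 95 were tested, and edgeR called 0 at an adjusted p under 0.05, where 0.393% of all genes tested were. The lowest adjusted p was 0.2. An unadjusted p under 0.05 was found for 9 genes, or 9.47%, against 14.1% of all genes tested. A DESeq2 Wald test called 0 as well. The log2 fold change was positive in 52 and negative in 43, with a median of 0.02.

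All 7 luminal calcium-binding chaperones had lower CPM in both libraries labelled vKO than in both controls, with a median log2 fold change of -0.24 and none of them called. Groups did not overlap in 40 of the 95 pathway genes tested (42.1%) and in 45.3% of all genes tested, and the chaperones were singled out after the values of the 10 groups were seen. The smallest p of this group was that of Hsp90b1, the chaperone GRP94, with 479.8 and 503 CPM in control, against 406 and 358 CPM in vKO (log2 fold change -0.36, SE 0.12, adjusted p 0.205). Summed CPM of elongating spermatid markers, which ran from 9084 to 11036 in control and from 8514 to 8729 in vKO, and of spermatocyte markers, from 2300.0 to 2313 and from 2039.7 to 2086, were also lower in vKO. Their part in the chaperone values was not tested. In bulk tissue, fewer cells of a type and less RNA per cell cannot be told apart.

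Among 22 tested partners of the ryanodine receptors and junction proteins, 13 had positive and 9 negative log2 fold changes, with a median of 0.10. Sypl2, or mitsugumin-29, a protein of muscle triad membranes, had 19 and 16 counts in control, against 35 and 52 in vKO (log2 fold change 1.28, SE 0.45, adjusted p 0.229). The groups did not overlap in Sypl2, and its counts were low like those of Ryr2. In store-operated entry and store leak the smallest p was that of Saraf, a brake on store-operated entry, at 142 and 143 CPM in control, against 116 and 106 CPM in vKO (log2 fold change -0.37, SE 0.12, adjusted p 0.2). Both vKO libraries were lower than both controls.

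Of 15 tested genes that make or break down IP3, 7 had positive and 8 negative log2 fold changes, with a median of -0.02. Plcz1, the sperm phospholipase that starts calcium waves in the egg, had 372 and 354 CPM in control, against 267 and 320.4 CPM in vKO (log2 fold change -0.31, SE 0.13, adjusted p 0.298). Both vKO libraries lay below the controls. The mitochondrial group had a median of -0.11, with Smdt1, the essential subunit EMRE of the uniporter, at 25.6 and 23.8 CPM in control, against 31.8 and 31.5 CPM in vKO (log2 fold change 0.36, SE 0.14, adjusted p 0.262). L-type channel subunits had a median of 0.16 (7 of 8 positive), kinases and anchors 0.16 (5 of 6), export pumps and exchangers 0.02 (5 of 8), and IP3 receptor partners -0.09 (1 of 6). The log2 fold change of the gene with the smallest p was 0.30 for Cacna2d1 in the first, 0.30 for Akap6 in the second, 0.52 for Atp2b3 in the third and -0.43 for Itpripl2 in the last. The 4 tested SERCA regulators and paralog had a median of 0.51, which lies between Pln, the inhibitor phospholamban, at 0.22 and Atp2a1 at 0.79. The others were Sln at 0.94 and Mrln at 0.18, and all but Pln had at most 19 counts in any library.

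**Figure D4:**
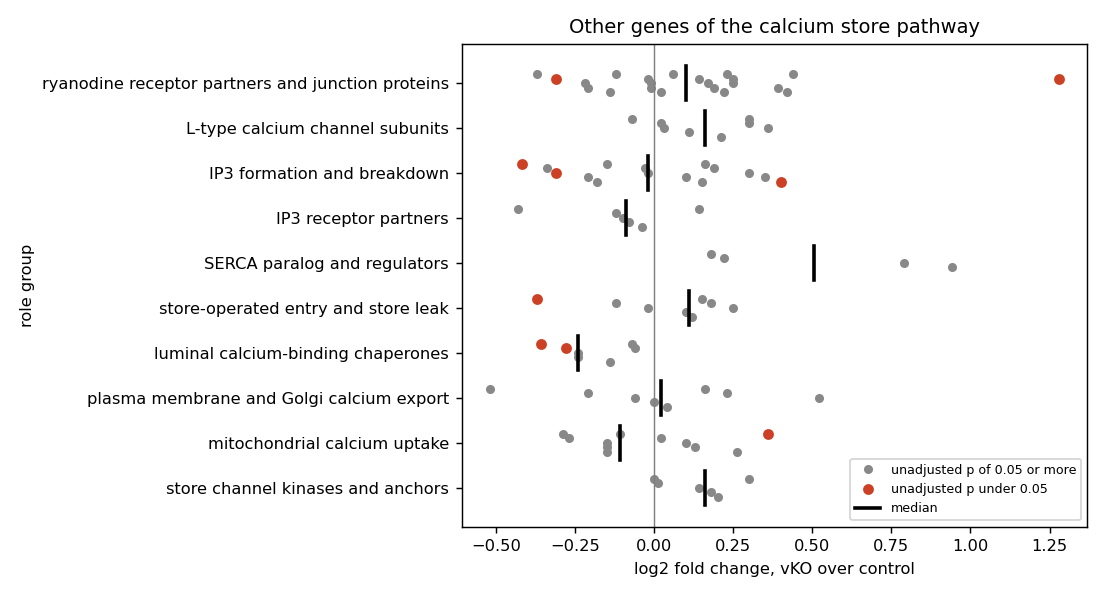
Log2 fold change of vKO over control for each tested gene of 10 role groups, with the median of each group as a black bar and genes at an unadjusted p under 0.05 in red. The 7 luminal chaperones all lie below 0 with a median of -0.24, and Sypl2 stands apart at 1.28.

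By the distance between profiles over 4 libraries, the genes most like Ryr2 were Ripor3, Serpina3n, Tnfrsf12a, Igfbp3 and Kcnh3. The measure was the root mean square difference of log2 CPM, each gene centred on its own mean, among 17818 genes with a mean of at least 1 CPM. It was 0.195 for Ripor3, with 9 and 15 counts in control, against 62 and 87 in the vKO-labelled libraries. It was 0.224 for Serpina3n, a secreted serine protease inhibitor, with 17 and 30 counts in control, against 166 and 130 in vKO. The distance was 0.35 for Tnfrsf12a, the receptor of the cytokine TWEAK, 0.363 for Igfbp3, a binding protein of insulin-like growth factors, and 0.376 for Kcnh3, a potassium channel. All 5 were low in both control libraries and high in both vKO libraries, as the choice by likeness to Ryr2 requires.

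The nearest tested genes on chromosome 13 had log2 fold changes from -1.42 to 0.19, none of them called. Mtr, the methionine synthase gene 75.8 kb away, had 49.3 and 41.7 CPM in control, against 55.1 and 48.7 CPM in the vKO-labelled libraries (log2 fold change 0.19, SE 0.14, adjusted p 0.597). Actn2, a muscle actinin gene 162 kb away, had 3.04 and 3.6 CPM in control, against 3.88 and 2.81 in vKO (log2 fold change 0.01, SE 0.28, adjusted p 0.994). On the other side of Ryr2, at 756 kb, Gm26861 had 33 and 39 counts in control, against 5 and 22 in vKO (log2 fold change -1.42, SE 0.58, adjusted p 0.295). Gm36525, 995 kb away, had a log2 fold change of 0.13. The groups overlapped in Mtr and Actn2, and Gm26861 lay lower in vKO.

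Markers of cell types that a whole testis or its surroundings could hold were set beside Ryr2. All 14 Sertoli cell markers had positive log2 fold changes (median 0.46), with 1 called, Wt1, and a summed level of 1399 and 1491 CPM in control against 2048 and 1810.4 CPM in the vKO-labelled libraries. Leydig cell markers summed to 301 and 365 CPM in control against 478 and 357 in vKO, endothelial markers to 33.9 and 23.6 against 42.7 and 36.9, and erythrocyte markers to 26.8 and 32.5 against 42.2 and 39.2. Spermatogonial markers, 10 of 10 positive, summed to 140 and 138 CPM against 176 and 155. Heart and skeletal muscle markers, of which 10 of 12 were in the table, summed to 52.5 and 51.3 CPM in control, against 57.8 and 63 CPM in vKO, and 4 of 7 tested were positive. The log2 fold changes of these 7 were 0.61 for the cardiac myosin Myh6, 0.30 for Tnni3, 0.13 for Mylpf, 0.12 for Tnnt2, -0.08 for Ckm, -0.43 for the cardiac and slow myosin Myh7 and -1.69 for Myh1, a fast skeletal myosin. Tnni3 made up most of the muscle sum, at 39.9 and 38.1 CPM in control, against 43.8 and 52.3 CPM in vKO. Myh1 had the smallest p of this list, with 43 and 75 counts in control, against 23 and 13 in vKO (adjusted p 0.111). Neuron and Schwann cell markers summed to 55.7 and 57.6 CPM against 73.1 and 64.8, with Snap25 at 0 and 1 counts in control, against 9 and 6 in vKO. Rete testis markers were slightly lower, at 49 and 51.9 CPM against 45.7 and 44.9. Epididymis markers, of which 4 of 8 were in the table, summed to 213 and 209 CPM against 170.4 and 174. Cst8 made up most of that sum, at 205 and 201 against 164 and 167 CPM. The sum therefore mostly follows Cst8 and does not measure epididymal tissue. Spink8 went the other way, with 4 and 12 counts in control, against 30 and 27 in vKO (log2 fold change 1.83, adjusted p 0.187). Myoid and macrophage sums overlapped between the groups, at 87.1 to 132 against 108 to 136 and at 62 to 108 against 84.7 to 100.1, and round spermatid sums lay between 1341 and 1423 in the 4 libraries. The part of these cell types in the values of Ryr2 was not tested.

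**Figure D5:**
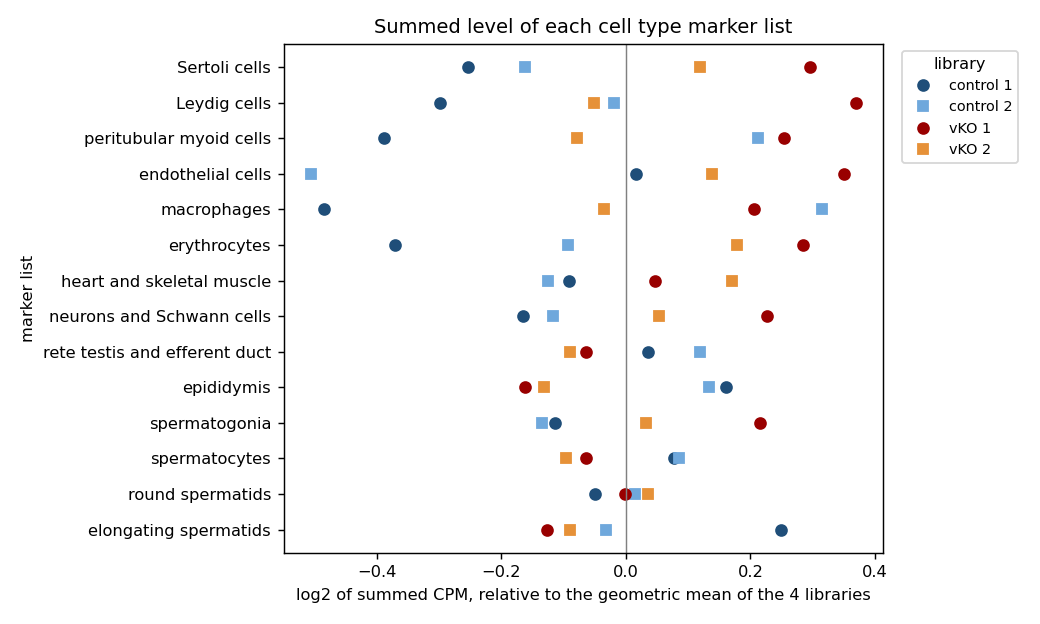
Summed CPM of each marker list in each library, as log2 relative to the geometric mean of the 4 libraries, blue for control and red or orange for vKO-labelled. Sertoli, erythrocyte and endothelial sums are higher in both vKO libraries than in both controls. The same holds for the spermatogonial, the heart and skeletal muscle, and the neuron and Schwann cell sums. Myoid and macrophage sums are lowest in control replicate 1.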

How the data were processed

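The authors deposited raw read counts per gene for 4 testis libraries, per the file headers. HISAT2 2.1.0 and HTSeq 0.6.1p1 are named in the submitters' processing notes; the genome build, annotation and strand setting are not given in the sources used here. Also deposited by the authors in that table are a mean normalized count (a signal of counts divided by size factors), a log2 fold change, its standard error and test statistic (scores), and p-values, under DESeq2 column names per the file headers. The members and gene lists were chosen with earlier results of these data known.

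Counts were fitted with edgeR 4.0.16 (limma 3.58.1, R 4.3.3): TMM scaling, filterByExpr, robust quasi-likelihood fit of genotype, two-sided F test, and Benjamini-Hochberg adjustment over 21132 genes. The fit was tested on simulated data. The standard error is the absolute log2 fold change over the square root of F. CPM use total counts times the TMM factor. Lengths and coordinates come from GENCODE M21 (GRCm38), in which 25261 of 25265 identifiers were found. Promoters come from RefSeq. By rule, named genes are the 8 members, Ythdf2, called pathway genes or else the smallest p per role group, and the 5 genes nearest to Ryr2 in profile. Markers, overlapping genes and genomic neighbours are named outside this rule, after their values were seen. Alternatives included DESeq2 1.42.0. One result of a single gene is not reported here.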

Additional observations from a re-analysis of the deposited data

How the results depend on the processing

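With n = 2 libraries per group, standard deviations are imprecise, and Ryr2 rests on 6 to 53 counts per library. Its log2 fold change ran from 2.55 to 2.90 over 9 alternatives and from 2.78 to 2.88 in the fits without a single library. A minimum of 10 counts in every sample leaves Ryr2 out, and the DESeq2 Wald test gave it no adjusted p, so that 0 members were called higher in each. No member was called lower under any alternative run.

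Over the whole table, genes higher and lower numbered 181 and 37 with scaling by totals, 89 and 67 after the GC offset, and 137 and 80 in the DESeq2 Wald test. Without robust estimation 15 were lower. Both groups use the same replicate numbers, but there are only 2 pairs, whose deviations correlated at 0.0932, and the numbers were not used as a pairing. In a fit with the replicate block 627 were higher and 390 lower, 2 members were called higher (Ryr2 and Itpr3, the latter at an adjusted p of 0.019) and 1 pathway gene lower, Saraf. With both the replicate block and the GC offset 297 were higher and 317 lower, and 1 pathway gene, again Saraf, was called lower. Itpr3 was not called in that fit (log2 fold change 0.38, adjusted p 0.11) or with the GC offset alone (0.37, adjusted p 0.332), and Ryr2 was the 1 member called in each. The cause was not tested.

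Without a single library, genes called ran from 30 (without vKO replicate 1) to 1048 (without control replicate 1) higher and from 5 (without vKO replicate 1) to 523 (without control replicate 2) lower. The lone library of a group is then assumed to vary like the other group. Members called higher ran from 0 (without vKO replicate 1) to 3 (without control replicate 1: Ryr2, Itpr3 and Atp2a2). Pathway genes called ran from 0 to 1 higher and from 0 to 3 lower, with both highest counts in the fit without control replicate 1.

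The sign of Atp2a2 turned, in a range from -0.06 to 0.41 over these fits, without control replicate 2 (-0.06) and without vKO replicate 1 (-0.01), and that of Atp2a3 with the GC offset (-0.04), with the replicate block added (-0.04), and without vKO replicate 2 (-0.05, in a range up to 0.27). Coding length for levels per kb was chosen after seeing the data. The RefSeq coding length was not run.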

Other observations

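YTHDF2 binds N6-methyladenosine, which is often placed within GGACU, so the letters GGACT were counted in the longest transcript of each gene, on the transcript strand only. Ryr2 held 15, or 0.892 per kb, against a median of 1.04 per kb over 15851 tested protein-coding genes. Itpr2 and Itpr3, whose values lay on opposite sides of control, had nearly the same density, at 1.46 and 1.45 per kb, and Atp2a2 had the lowest of the 8 genes, with 1 match and 0.176 per kb. The letters do not show that a transcript carries the mark.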
